A study of Homo sapiens with 6 samples.

Results

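Aminoacyl-tRNA synthetases join each amino acid to its transfer RNA (tRNA) and so supply the ribosome with its substrates. They were followed in 786-O, an established human clear cell renal carcinoma line, on arrays made after a lentivirus had delivered a short hairpin RNA (shRNA), a means to lower a matching messenger RNA. The arrays form 2 groups of 3, the first with an shRNA against PLEKHO1 (shPLEKHO1) and the other with a negative control shRNA (shNC). All 6 arrays hold total RNA of the same line, all of it after lentiviral delivery. The labels give neither the shRNA sequence, nor the time after delivery, nor whether each array had its own culture. All p-values therefore reflect array-to-array spread alone, and that spread may be technical.

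The members were chosen by symbol: genes named as a synthetase of 1 amino acid, in the cytosol or in mitochondria, and the 3 scaffold proteins of the multisynthetase complex. EPRS1, which charges tRNA with glutamate and with proline, entered through an older symbol. The rule names 40 genes, of which 36 were measured, among 18132 genes tested on 1 probe set each. They are 17 cytosolic synthetases, 2 that serve both compartments, 16 mitochondrial synthetases and the scaffold protein AIMP1. The other members of the rule, AIMP2 and EEF1E1 among them, are not analysed here. The rule used no measured value, and no filter on low values was set.

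As background, human cells charge tRNA in the cytosol and, with a separate set of nuclear-encoded enzymes, in mitochondria, where the products of the mitochondrial genome are translated. The glycine and lysine enzymes, GARS1 and KARS1, are made from the same gene for both places. Several cytosolic enzymes sit with scaffold proteins in the multisynthetase complex. Genes of cytosolic synthetases are among the known targets of ATF4, the transcription factor that acts when amino acids run short. The enzymes fall into class I and class II by the fold of their catalytic domain.

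The targeted gene was checked first. PLEKHO1, an adaptor protein with a pleckstrin homology domain, had intensities of 110.29, 115.69 and 97.37 on the shPLEKHO1 arrays and 134.75, 142.63 and 126.15 on the shNC arrays. With shPLEKHO1 it was 1.25-fold lower (-0.32 ± 0.08 on the log2 scale, adjusted p = 0.0123 in limma). The exact two-sided permutation test over the 20 ways to split the arrays gave p = 0.1, the smallest that 3 against 3 allows. Array medians lay between 55.7 and 57.1, and log2 values correlated at 0.998 to 0.999 across genes within a group and at 0.989 to 0.990 between groups. The 7 markers listed for the renal carcinoma line averaged 108 (PAX2) to 15448 (VIM) with shPLEKHO1 and 136 to 14741 with shNC. The next highest, KRT8, averaged 2564 with shPLEKHO1 and 2074 with shNC. Of the 7, 3 rose and 3 fell. Of the 9 measured leukocyte, endothelial and fibroblast markers none passed the test, and their summed means were 425 with shPLEKHO1 and 417 with shNC. PTPRC, the pan-leukocyte marker, was the dimmest of them and averaged 6.82 with shPLEKHO1 and 6.39 with shNC. CD68, also listed for leukocytes, was the brightest and averaged 146 with shPLEKHO1 and 128 with shNC, near the level of PAX2. The array's 28S ribosomal RNA controls read 1.06 ± 0.05 and 0.74 ± 0.08 on 2 probe sets that rose, and 0.09 ± 0.07 on a dim one that did not pass (adjusted p = 0.404). The part of that in the results below was not tested.

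Synthetase transcripts moved in both directions. Log2 differences are shPLEKHO1 minus shNC, ± SE with n = 3 arrays per group, on the scale of log2(intensity + 1) after quantile normalization. The words rose and fell mean an adjusted p under 0.05 in limma, with Benjamini-Hochberg adjustment across the whole table of genes. Of the 36 members, 11 rose, 6 fell and 19 did not pass, so 47.2% changed, where 34.1% of all genes did. The members were bright, with a median percentile of 84.7 for mean intensity among all genes. Calls were more frequent without dim genes: 6343 of 12692 genes changed when the lowest 30% were left out. The 34.1% is therefore a low background for these members. A rise was called for 18.1% of all genes and a fall for 16.0%. The arrays of the groups did not overlap for 20 of the 36 members, against 43.1% of all genes. The median log2 difference of the members was 0.07, and that of all genes was 0.01. Only 5 members combined a call with an absolute log2 difference of at least 0.5, as did 9.78% of all genes: AARS1 and MARS1 on the low side, and YARS2, CARS2 and MARS2 on the high side. In such bulk RNA, fewer cells that make a transcript and less of it per cell cannot be told apart.

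**Figure D1:**
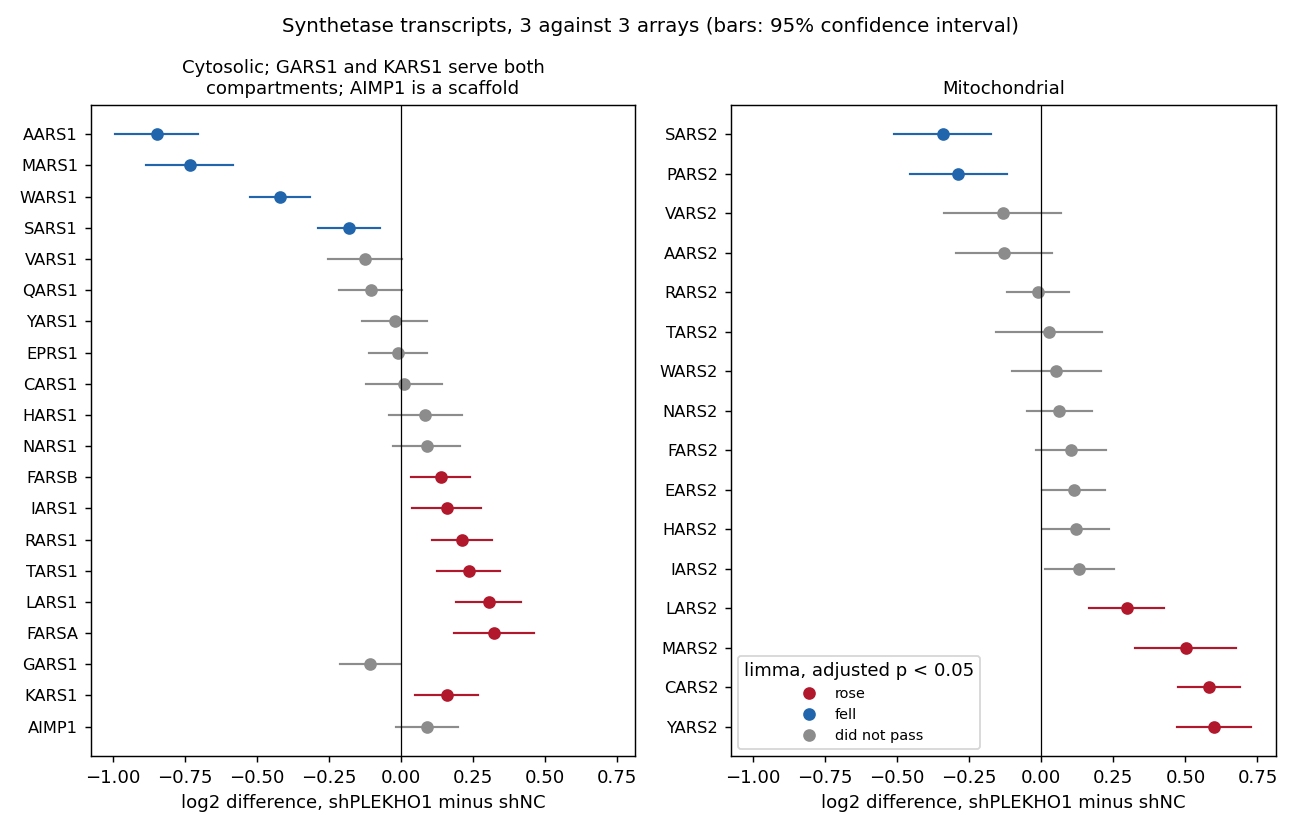
Log2 difference (shPLEKHO1 minus shNC, 3 against 3 arrays) of each measured synthetase and of AIMP1, with cytosolic enzymes on the left and mitochondrial enzymes on the right. Points are estimates and bars their 95% confidence intervals. The 2 largest differences among cytosolic enzymes are falls (AARS1 and MARS1), and the 3 largest among mitochondrial enzymes are rises (YARS2, CARS2 and MARS2).

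Among the 17 cytosolic synthetases, 6 rose, 4 fell and 7 did not pass, with a median of 0.01 and a range of -0.85 to 0.32. The 4 that fell were the enzymes for alanine, methionine, tryptophan and serine. The 6 that rose were those for leucine, threonine, arginine and isoleucine and both subunits of the phenylalanine enzyme. The groups did not overlap for 11 of the 17, against 43.1% of all genes. Of these enzymes 58.8% changed, where 34.1% of all genes did, or 6343 of 12692 with the lowest 30% left out.

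AARS1, the alanine enzyme, had intensities of 527, 597 and 503 on the shPLEKHO1 arrays and 975, 963 and 968 on the shNC arrays. Every shPLEKHO1 array lay far below every shNC array, and the shNC arrays were the tighter group. The gene was 1.80-fold lower with shPLEKHO1 (-0.85 ± 0.06, adjusted p = 3.46e-05), and both of its probe sets fell.

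MARS1, the methionine enzyme, which also charges the initiator tRNA, had intensities of 478, 545 and 466 on the shPLEKHO1 arrays and 807, 822 and 841 on the shNC arrays. These groups were also well apart. MARS1 was 1.66-fold lower with shPLEKHO1 (-0.73 ± 0.07, adjusted p = 8.89e-05). Of its 5 probe sets, 4 fell. The 3 bright ones read -0.77 to -0.72 and the 2 dim ones -0.37 and -0.26, of which the last did not pass.

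WARS1, the tryptophan enzyme, is known as a gene that interferon gamma induces. Its intensities were 750, 761 and 712 on the shPLEKHO1 arrays and 1014, 974 and 967 on the shNC arrays, with no overlap. The log2 difference was -0.42 ± 0.04 (adjusted p = 0.000229), and 3 of its 4 probe sets fell. SARS1, the serine enzyme, averaged 1151 ± 16.8 with shPLEKHO1 and 1308 ± 86.3 with shNC (SD, n = 3 each), a difference of -0.18 ± 0.05 (adjusted p = 0.0181). The SARS1 call is the weakest of the 4 falls: it was lost without shPLEKHO1 replicate 1 or 3 and without shNC replicate 1 or 3, with adjusted p of 0.0519 to 0.0647.

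Both subunits of the phenylalanine enzyme rose, FARSA, the catalytic alpha subunit, by 0.32 ± 0.06 (adjusted p = 0.00402) and FARSB, the beta subunit, by 0.14 ± 0.04 (adjusted p = 0.0459). FARSA averaged 235 ± 21.1 with shPLEKHO1 and 189 ± 7.20 with shNC (SD, n = 3 each), on its only probe set. FARSB averaged 805 ± 2.07 with shPLEKHO1 and 730 ± 12.9 with shNC. Its call was lost whichever array was left out, with adjusted p of 0.0634 to 0.130, and none of its 5 probe sets passed when all 44988 probe sets were tested.

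LARS1, the leucine enzyme, which also acts as a leucine sensor of the mTORC1 pathway, had intensities of 1911, 2048 and 1906 on the shPLEKHO1 arrays and 1641, 1555 and 1514 on the shNC arrays. The difference was 0.30 ± 0.05 (adjusted p = 0.00175), and the groups were clearly apart. A second bright probe set rose by 0.33, but a dim one fell, at -0.37, with means of 82.0 with shPLEKHO1 and 107 with shNC. LARS1 is the only member with probe sets called in both directions, and averaging its 3 probe sets gave 0.09, which missed the threshold (adjusted p = 0.218).

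TARS1, the threonine enzyme, averaged 3635 ± 77.6 with shPLEKHO1 and 3096 ± 177 with shNC (SD, n = 3 each), a rise of 0.24 ± 0.05 (adjusted p = 0.00558). RARS1, the arginine enzyme, averaged 1396 ± 19.0 with shPLEKHO1 and 1206 ± 63.1 with shNC, a rise of 0.21 ± 0.04 (adjusted p = 0.00722) that both of its probe sets shared. IARS1, the isoleucine enzyme, averaged 2698 ± 73.2 with shPLEKHO1 and 2434 ± 79.1 with shNC, a rise of 0.16 ± 0.05 (adjusted p = 0.0471). The IARS1 call did not hold without shPLEKHO1 replicate 1 or 3, or without shNC replicate 1 or 3, where the adjusted p was 0.104 to 0.144. The TARS1 call did not hold on the probe set chosen when those marked as sharing sequence were set aside (0.17, adjusted p = 0.0530).

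The other 7 cytosolic enzymes did not pass, and their estimates lay between -0.13 and 0.09. They are VARS1 (-0.13 ± 0.06), QARS1 (-0.10 ± 0.05), YARS1 (-0.02 ± 0.05), EPRS1 (-0.01 ± 0.04), CARS1 (0.01 ± 0.06), HARS1 (0.08 ± 0.05) and NARS1 (0.09 ± 0.05), the enzymes for valine, glutamine, tyrosine, glutamate and proline, cysteine, histidine and asparagine. EPRS1, whose product also represses the translation of some inflammatory messenger RNAs after interferon gamma, had 1395, 1446 and 1397 on the shPLEKHO1 arrays and 1443, 1418 and 1378 on the shNC arrays. Its 95% confidence interval of -0.11 to 0.09 leaves out changes of the size seen for AARS1. For YARS1 the interval was -0.13 to 0.09, and for CARS1 -0.12 to 0.14.

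The promoter windows of several cytosolic members share a short sequence, shown here because it stands in windows of enzymes that fell, rose and did not pass. The letters TGATGNAA are a simplified form of the composite element that ATF4 and C/EBP factors bind, and they were searched on both strands from 250 bases before to 50 after each RefSeq start (GRCh38.p14). They were found in 8 of the 42 windows of the 31 members with a window, or 19.0%, and in 3.62% of all 35116 windows. The stretches below run 5′ to 3′ along the gene, and capitals mark the match, read on either strand.
AARS1: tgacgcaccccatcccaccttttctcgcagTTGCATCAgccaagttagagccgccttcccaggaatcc
MARS1: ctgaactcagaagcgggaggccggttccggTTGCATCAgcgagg
CARS1: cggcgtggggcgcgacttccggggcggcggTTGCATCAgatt
IARS1: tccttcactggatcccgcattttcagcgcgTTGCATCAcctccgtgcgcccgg
TARS1: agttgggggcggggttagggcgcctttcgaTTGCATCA
YARS2: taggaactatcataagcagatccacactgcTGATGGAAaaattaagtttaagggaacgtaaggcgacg
They lie at chr16:70289656-70289723 on the minus strand (AARS1), chr12:57488034-57488077 on the plus strand (MARS1), chr11:3057414-3057455 on the minus strand (CARS1), chr9:92293688-92293740 on the minus strand (IARS1), chr5:33440937-33440974 on the plus strand (TARS1) and chr12:32756057-32756124 on the minus strand (YARS2). In the first 5 the capitals are the same 8 letters in the same orientation, close to the start in MARS1, CARS1, IARS1 and TARS1 and farther upstream in AARS1. Of the 8 members with a match, AARS1 and MARS1 fell, IARS1, TARS1 and YARS2 rose, and CARS1, NARS1 and GARS1 did not pass. A match is a description of these letters and not evidence of binding.

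**Figure D2:**
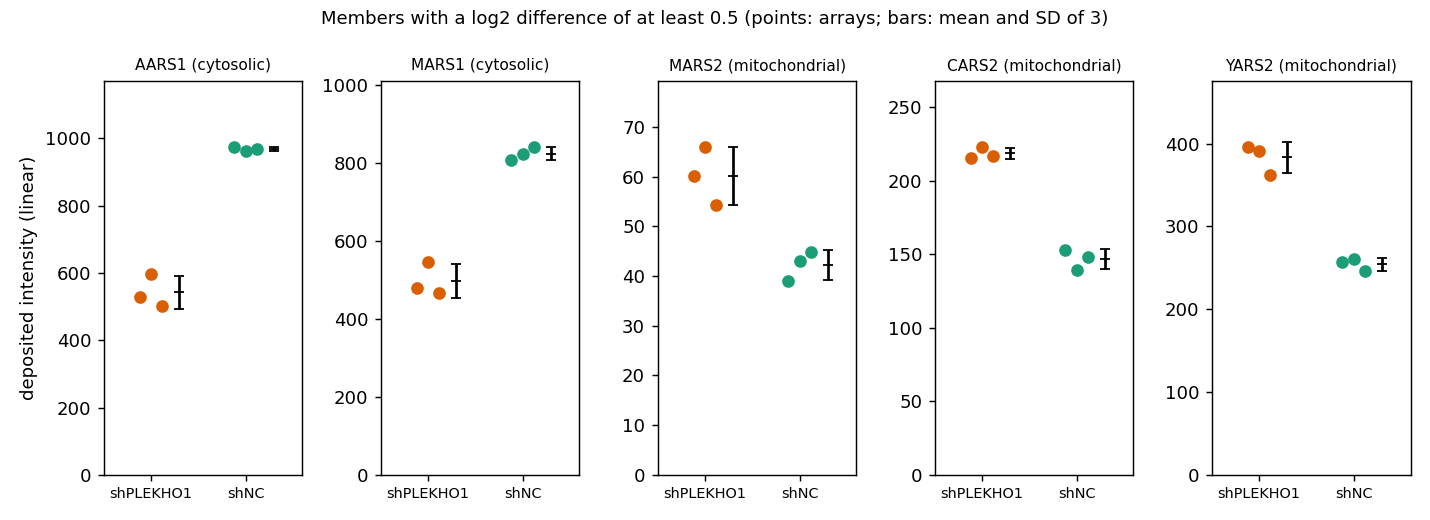
Deposited intensity (linear scale, each axis from 0) of the 5 members with a log2 difference of at least 0.5 in size, with shPLEKHO1 arrays left of shNC arrays. Points are arrays and bars the mean and SD of 3. The groups do not overlap for any of the 5: AARS1 and MARS1 are lower, and MARS2, CARS2 and YARS2 higher, with shPLEKHO1.

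GARS1 and KARS1 serve both compartments. KARS1, the lysine enzyme, averaged 3166 ± 54.5 with shPLEKHO1 and 2852 ± 140 with shNC (SD, n = 3 each) and rose by 0.16 ± 0.05 (adjusted p = 0.0329). The KARS1 call was lost without shPLEKHO1 replicate 1 or 3 and without shNC replicate 2 or 3, with adjusted p of 0.0796 to 0.109. GARS1, the glycine enzyme, averaged 3774 ± 114 with shPLEKHO1 and 4002 ± 68.7 with shNC and did not pass (-0.11 ± 0.04, adjusted p = 0.105), although its groups did not overlap.

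AIMP1 is a scaffold protein of the multisynthetase complex that can also be released from cells and act as a cytokine. Its brightest probe set read 955, 984 and 984 on the shPLEKHO1 arrays and 962, 889 and 865 on the shNC arrays. The groups overlap there, and the difference of 0.09 ± 0.05 did not pass (adjusted p = 0.186). Other probe sets of AIMP1 read differently: of its 5, 2 fell, at -0.75 (62.4 with shPLEKHO1 and 106 with shNC) and at -0.26 (147 with shPLEKHO1 and 178 with shNC). The mean of the 5 fell, at -0.20 with an adjusted p of 0.00333, so the direction for AIMP1 turns with the probe set. Which transcripts each probe set covers was not examined here.

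The members that belong to the multisynthetase complex did not move as a block. Of 8 measured, IARS1, LARS1, RARS1 and KARS1 rose, MARS1 fell, and EPRS1, QARS1 and AIMP1 did not pass, with a median of 0.12. Of the 11 cytosolic enzymes outside the complex, 3 rose and 3 fell, and their median was 0.01. Among all genes 18.1% rose and 16.0% fell.

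**Figure D3:**
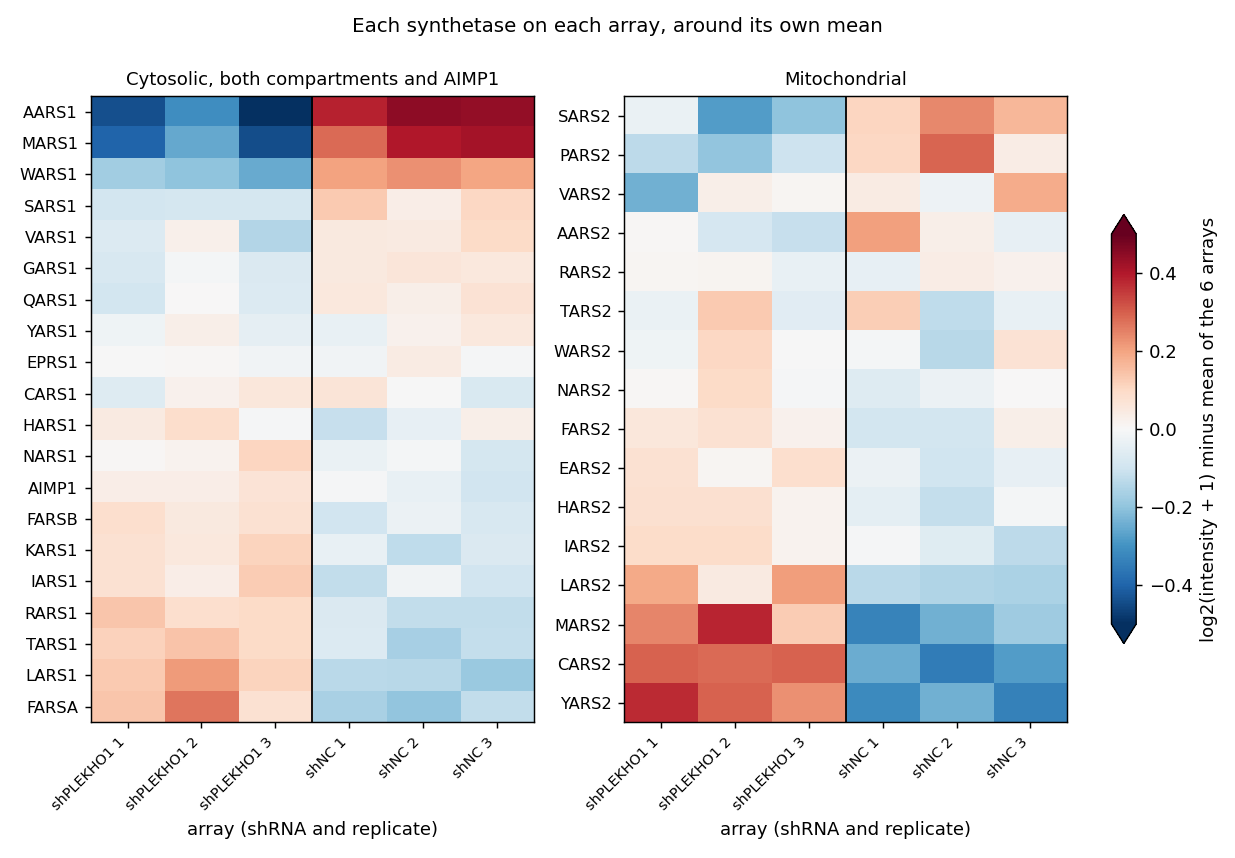
Every measured member on each of the 6 arrays, as log2(intensity + 1) after quantile normalization minus the gene's mean over the 6 arrays, with shPLEKHO1 arrays on the left of each panel. Red is above and blue below that mean, and deviations past 0.5 take the end colours. AARS1, MARS1, WARS1, YARS2, CARS2 and MARS2 separate the groups on every array, while rows such as EPRS1 and RARS2 stay near white.

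Among the 16 mitochondrial synthetases, 4 rose, 2 fell and 10 did not pass, with a median of 0.08 and a range of -0.34 to 0.60. The rises were the tyrosine, cysteine, methionine and leucine enzymes, all of class I, and the falls were the serine and proline enzymes, both of class II. None of the 9 class I enzymes fell and none of the 7 class II enzymes rose. This split by class was seen after the values were known and has no test. It depends on the probe set: VARS2, of class I, fell with the mean of its probe sets (-0.17, adjusted p = 0.0100) and on the probe set chosen when those marked as sharing sequence were set aside (-0.23, adjusted p = 0.0404). The groups did not overlap for 7 of the 16, close to the 43.1% of all genes. Of these enzymes 37.5% changed, where 34.1% of all genes did, or 6343 of 12692 with the lowest 30% left out.

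YARS2, the mitochondrial tyrosine enzyme, had intensities of 396, 391 and 362 on the shPLEKHO1 arrays and 257, 260 and 246 on the shNC arrays. All shPLEKHO1 arrays were higher, and the gene was 1.51-fold higher with shPLEKHO1 (0.60 ± 0.06, adjusted p = 0.000107). It has 1 probe set, so no second reading was at hand.

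CARS2, the mitochondrial cysteine enzyme, which is also known to make cysteine persulfides, had intensities of 216, 223 and 217 on the shPLEKHO1 arrays and 153, 139 and 148 on the shNC arrays. The groups were well apart, and CARS2 rose by 0.58 ± 0.05 (adjusted p = 5.17e-05). Of its 3 probe sets, 2 rose, the second by 0.52. The third was dim, with means of 12.2 with shPLEKHO1 and 13.0 with shNC, and did not pass (-0.11). With the mean of the 3 the rise was 0.33 (adjusted p = 0.0108), under the log2 difference of 0.5.

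MARS2, the mitochondrial methionine enzyme, had intensities of 60.1, 66.1 and 54.3 on the shPLEKHO1 arrays and 39.0, 43.0 and 44.8 on the shNC arrays. The groups did not overlap, and the difference was 0.50 ± 0.08 (adjusted p = 0.00130), or 1.42-fold. All 3 of its probe sets rose, by 0.50 to 0.53, though the brightest and another hold the same value, 60.1234, on shPLEKHO1 replicate 1. Background probe sets reach the brightness of MARS2 at high GC content: the nearest read 49.3 with shPLEKHO1 and 45.9 with shNC (0.11 ± 0.06), and their part in the MARS2 result was not tested.

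The promoter window of MARS2 holds, in 2 places marked by capitals, a simplified element of NRF1, a factor known to act on many nuclear genes of mitochondrial proteins. Its letters are GCGCA, any base, and then GCGC. It lies at chr2:197705206-197705378 on the plus strand of GRCh38.p14, from RefSeq.
MARS2: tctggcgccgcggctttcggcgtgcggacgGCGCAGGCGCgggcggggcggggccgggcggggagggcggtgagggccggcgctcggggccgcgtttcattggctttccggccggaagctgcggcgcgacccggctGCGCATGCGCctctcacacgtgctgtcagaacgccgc
On both strands, this element was found in 19.0% of member windows and in 5.78% of all windows. Its 6 members were SARS1, FARSB, TARS1, PARS2, IARS2 and MARS2, of which SARS1 and PARS2 fell, IARS2 did not pass and the others rose. The ETS element CCGGAAGT was found in 21.4% of member windows and in 4.14% of all windows, in 8 members of which only TARS1 rose and WARS1 and PARS2 fell. None of these 3 sets of letters goes with a single direction among the members.

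LARS2, the mitochondrial leucine enzyme, had intensities of 190, 178 and 193 on the shPLEKHO1 arrays and 157, 151 and 153 on the shNC arrays. It rose by 0.30 ± 0.06 (adjusted p = 0.00415) on its only probe set, and the arrays of the groups did not overlap.

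SARS2, the mitochondrial serine enzyme, had intensities of 129, 111 and 114 on the shPLEKHO1 arrays and 145, 155 and 150 on the shNC arrays. It fell by 0.34 ± 0.07 (adjusted p = 0.00738), with no overlap, but the mean of its 2 probe sets, of which the dimmer did not pass, missed the threshold (adjusted p = 0.0558). PARS2, the mitochondrial proline enzyme, had intensities of 62.0, 58.9 and 62.2 on the shPLEKHO1 arrays and 72.6, 82.5 and 70.1 on the shNC arrays. The gene fell by 0.29 ± 0.07 (adjusted p = 0.0160), but the call was lost without shPLEKHO1 replicate 2 (-0.26, adjusted p = 0.0547). Both of its probe sets read -0.29, though the second was dim, with means of 16.5 with shPLEKHO1 and 20.2 with shNC.

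The other 10 mitochondrial enzymes did not pass. VARS2 (-0.13 ± 0.09), AARS2 (-0.13 ± 0.07), RARS2 (-0.01 ± 0.05), TARS2 (0.03 ± 0.08), WARS2 (0.05 ± 0.07), NARS2 (0.06 ± 0.05), FARS2 (0.10 ± 0.05), EARS2 (0.11 ± 0.05), HARS2 (0.12 ± 0.05) and IARS2 (0.13 ± 0.05) charge tRNA with valine, alanine, arginine, threonine, tryptophan, asparagine, phenylalanine, glutamate, histidine and isoleucine. The lowest adjusted p among them was 0.0907, for IARS2. RARS2, at 538, 557 and 525 on the shPLEKHO1 arrays and 542, 540 and 544 on the shNC arrays, had a 95% confidence interval of -0.12 to 0.10. Less bright probe sets of 3 of these genes fell: 1 of 4 for WARS2 (-0.45, 60.1 with shPLEKHO1 and 83.0 with shNC), 2 of 4 for VARS2 (-0.39 and -0.23) and 1 of 2 for AARS2 (-0.27).

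**Figure D4:**
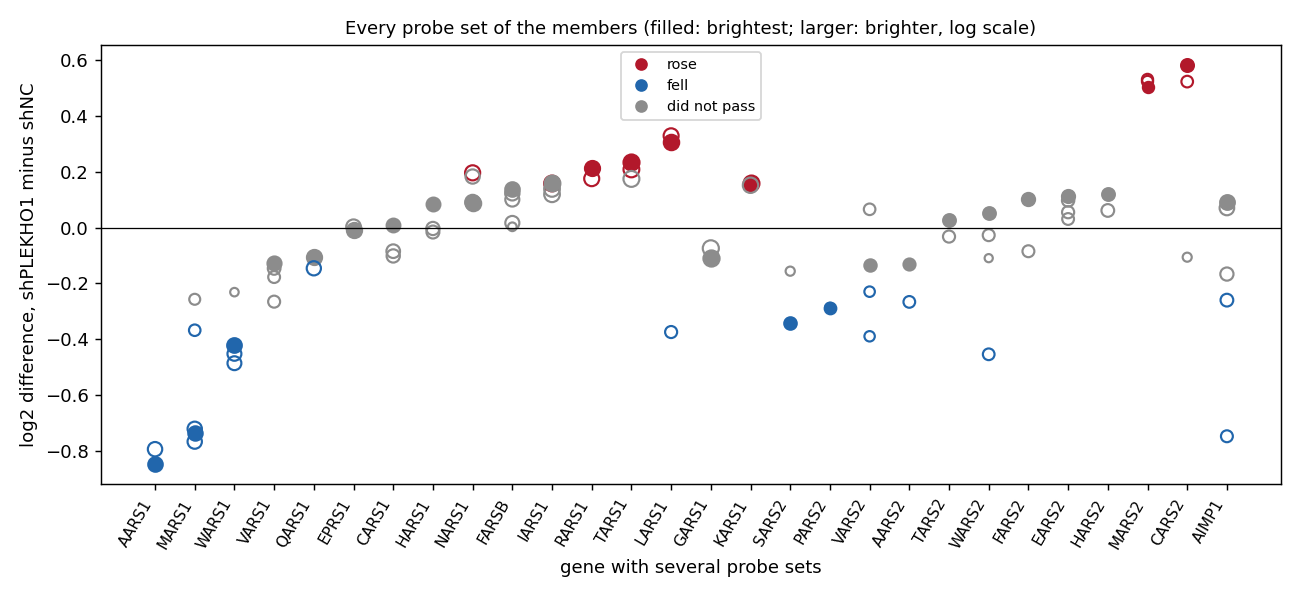
Log2 difference (shPLEKHO1 minus shNC) of every probe set of the 28 members that have more than 1, from a fit on all 44988 probe sets. Filled points are the brightest probe set, larger points are brighter, and colours show calls over all probe sets. Probe sets of AARS1, MARS1, WARS1 and MARS2 lie together on 1 side of 0, while those of LARS1, AIMP1, WARS2 and VARS2 spread across it.

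In all, 93 probe sets measured the 36 members. The range of the probe sets of a gene was widest for AIMP1, LARS1, CARS2 and MARS1, and narrowest for PARS2, KARS1, EPRS1 and MARS2. NARS1, whose brightest probe set did not pass, had 1 of 4 that rose (0.20), and QARS1 had 1 of 2 that fell (-0.15).

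The cytosolic and mitochondrial enzymes for the same amino acid were set side by side in 17 pairs, with EPRS1 and FARS2 each in 2 of them. The difference was taken within each array and compared between the groups. For methionine the enzymes moved apart: MARS1 fell and MARS2 rose, so that the mitochondrial enzyme gained 1.24 ± 0.03 on the cytosolic one with shPLEKHO1. For leucine, LARS1 and LARS2 both rose by 0.30, with a difference of -0.01 ± 0.08, and for serine, SARS1 and SARS2 both fell. In the other 14 pairs at most 1 enzyme was called.

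The mitochondrial enzyme gained on the cytosolic one also for alanine (0.72 ± 0.11), tyrosine (0.62 ± 0.06), cysteine (0.57 ± 0.06) and tryptophan (0.47 ± 0.08), and by less for glutamate (0.12 ± 0.05). On the brightest probe sets, the cytosolic enzyme was the one that changed in alanine and tryptophan, and the mitochondrial one in tyrosine and cysteine. A less bright probe set of AARS2 (-0.27, 1 of 2) and of WARS2 (-0.45, 1 of 4) also fell, so the alanine and tryptophan gaps depend on the probe set. The mitochondrial enzyme lost ground for proline (-0.28 ± 0.07), arginine (-0.22 ± 0.04), phenylalanine against FARSA (-0.22 ± 0.05) and threonine (-0.21 ± 0.06). For these 10 pairs, methionine included, the groups did not overlap. For single genes that share was 43.1%, and for other pairs of genes it was not computed, so this count has no matching background. Each of the 10 pairs had an exact two-sided permutation p of 0.1, the smallest that 3 against 3 arrays allows, and 0.17 after Benjamini-Hochberg adjustment over the 17 pairs, so no pair could pass.

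**Figure D5:**
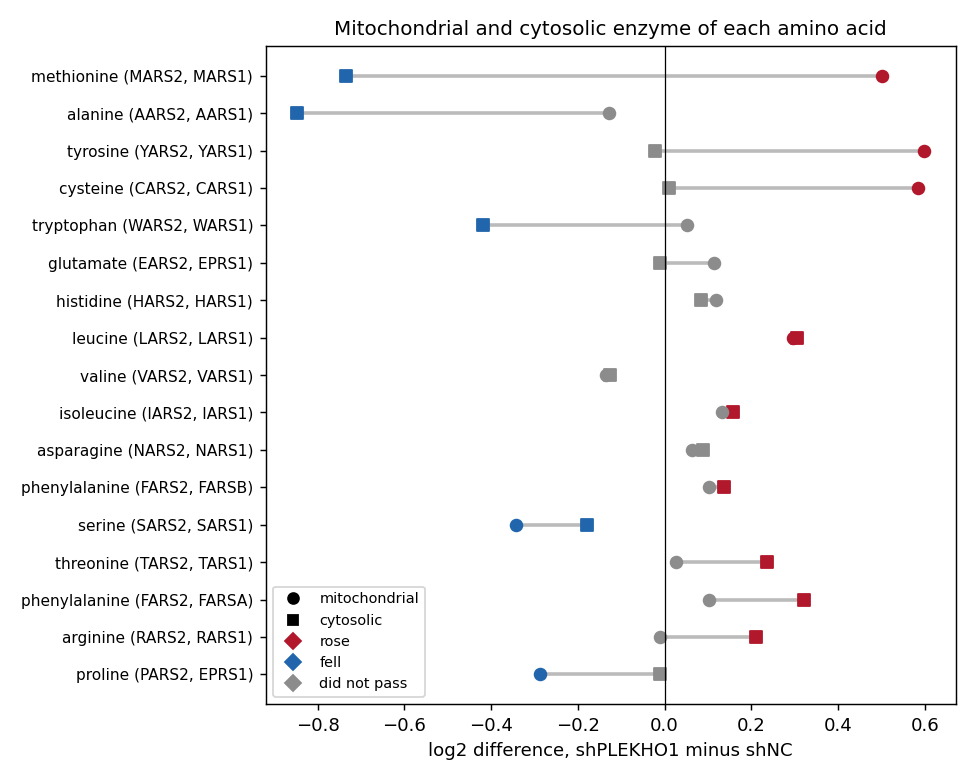
Log2 difference (shPLEKHO1 minus shNC) of the mitochondrial enzyme (circles) and the cytosolic enzyme (squares) for each amino acid, ordered by the gap between them, with grey lines joining a pair. Red rose, blue fell and grey did not pass in limma. Methionine spans 1.24, from MARS1 at -0.73 to MARS2 at 0.50, while the leucine enzymes lie on each other at 0.30.

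Genes that work with the synthetases were read from lists of related genes, whose counts stand beside the 18.1% of all genes that rose and the 16.0% that fell. Of 3 other genes of tRNA charging, TARS3, a cytosolic threonine enzyme outside the symbol rule, rose by 0.33 ± 0.05 (82.7 with shPLEKHO1 and 65.7 with shNC), while SEPSECS (-0.11), which makes selenocysteine on its tRNA, and PSTK (0.04), the kinase that acts before it, did not pass. For SEPSECS that is the brightest of 3 probe sets, and 2 of the 3 rose, so its direction turns with the probe set. All 4 measured helpers of mitochondrial charging rose, with a median of 0.28. GATC (0.45 ± 0.05), GATB (0.23 ± 0.06) and QRSL1 (0.18 ± 0.04) form the amidotransferase that makes glutaminyl-tRNA in mitochondria, and MTFMT (0.34 ± 0.04) formylates the initiator methionyl-tRNA that MARS2 charges.

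Of 10 measured elongation factors, which carry charged tRNA to the ribosome or move it along, 8 did not pass. EEF1A1 was among these 8, at 0.04 on the brightest of its 6 probe sets, 3 of which fell. GFM1, the mitochondrial translocation factor, rose by 0.56 ± 0.07 (508 with shPLEKHO1 and 345 with shNC), and EEF1A2, a tissue-restricted form of the cytosolic carrier, fell by 0.56 ± 0.07 (204 with shPLEKHO1 and 301 with shNC). Of 4 measured genes of trans-editing and tRNA release, DTD2, a deacylase of mischarged tRNA, rose by 0.36 ± 0.06. MRPL58, a mitochondrial peptidyl-tRNA hydrolase, fell by 0.38 ± 0.05.

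The related genes included those that make and modify tRNA. Of 43 measured tRNA modification genes, 20 rose and 4 fell, and their median was 0.18. YRDC, which makes the threonylcarbamoyl group of N6-threonylcarbamoyladenosine, was 2.24-fold higher with shPLEKHO1 (1.16 ± 0.05, 654 with shPLEKHO1 and 292 with shNC). PUS1 (0.61 ± 0.05) rose and TRUB1 (-0.60 ± 0.05) fell, and both make pseudouridine.

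Of 24 measured genes of tRNA splicing and end processing, 8 rose and 6 fell, and their median was 0.09. TRMT10C, a subunit of mitochondrial RNase P, rose by 0.65 ± 0.05. TSEN54, a subunit of the splicing endonuclease, and POP4, a subunit of nuclear RNase P, fell by 0.82 ± 0.08 and 0.60 ± 0.06. Of the 2 probe sets of POP4, 1 fell.

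Of 19 measured subunits and factors of RNA polymerase III, which transcribes tRNA genes, 9 rose and 4 fell, and their median was 0.15. The alternative subunits POLR3GL and POLR3G went opposite ways. POLR3GL averaged 87.0 ± 10.5 with shPLEKHO1 and 315 ± 16.6 with shNC (SD, n = 3 each) and was 3.60-fold lower with shPLEKHO1 (-1.85 ± 0.09, adjusted p = 6.38e-06). POLR3G averaged 56.4 ± 5.55 with shPLEKHO1 and 25.4 ± 1.56 with shNC and was 2.17-fold higher (1.12 ± 0.08, adjusted p = 2.75e-05). BDP1, a part of the initiation factor TFIIIB, rose by 0.55 ± 0.06. No tRNA was measured as such.

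Of the 24 genes of the amino acid response, 12 fell, 3 rose and 9 did not pass, with a median of -0.17. PSPH, the last enzyme of serine synthesis, fell by 1.28 ± 0.06 and DDIT4, an inhibitor of mTORC1, by 1.17 ± 0.06, while STC2, a secreted glycoprotein, rose by 0.93 ± 0.04 on the brightest of its 3 probe sets, 1 of which fell. The transcript of ATF4, named here outside the rule for named genes because it heads the response, averaged 4241 ± 22.9 with shPLEKHO1 and 4298 ± 112 with shNC (-0.01 ± 0.04, adjusted p = 0.856). AARS1, MARS1, WARS1 and SARS1 fell on the same arrays as these genes, and IARS1, TARS1, LARS1 and RARS1 rose there.

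Of 16 measured interferon gamma genes, listed because WARS1 is one of its known targets, 4 rose, 1 fell and 11 did not pass, with a median of -0.02. GBP1, a guanylate-binding protein, rose by 1.15 ± 0.07 and the kinase JAK2 by 0.40 ± 0.07, while the receptor chain IFNGR2 fell by 0.36 ± 0.05. Of the 3 probe sets of JAK2, 1 rose. WARS1 fell by 0.42, on the opposite side from GBP1.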

How the data were processed

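Total RNA of 786-O cells was hybridised to 6 Affymetrix arrays of 1 colour, 3 for each shRNA. Groups come from titles and genotype labels; the treatment text of all 6 names the PLEKHO1 shRNA. The submitters' processing notes name Affymetrix Expression Console (version and algorithm: not given in the sources used here). Deposited by the authors are linear intensity values for 49395 probe sets, from 4.33 to 19770. Of the 209410 values above 20, 8.02% have a fractional part within 0.001 of 6 values that lie equally far apart. If fractional parts were even, 1.2% would. No source states the step that left this trace. Probe sets can also hold the same value on an array, to the digits kept here. On shPLEKHO1 replicate 1, 60.1234 stands for probe sets of MARS2 and of WARS2.

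From these, log2(intensity + 1) was taken with a pseudocount of 1, quantile normalized over all probe sets, and fitted in limma 3.58.1 (R 4.3.3) with lmFit and eBayes (4 residual and 3.62 prior degrees of freedom). Each gene was read from the probe set with the highest mean over the 6 arrays, among 44988 with exactly 1 symbol. The pseudocount understates the differences of dim genes, as does remaining background where it is equal in both groups. Among background probe sets, one of low GC content read -0.01 ± 0.05. One of high GC content read 0.15 ± 0.07 (321 with shPLEKHO1 and 289 with shNC, adjusted p = 0.148 in limma). The brightest read 0.18 ± 0.06 (adjusted p = 0.0374 in limma). Their part in the rises of the members was not tested. Overlap of groups was judged on the deposited intensities for genes, and on the within-array differences of normalized log2 values for pairs. The number of arrays limits the precision. Steps were tested on simulated data.

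Symbols were updated through the RefSeq table of GRCh38.p14 (44961 probe sets matched), which also gave the promoter windows; 5 members (YARS1, VARS1, LARS1, AARS2 and VARS2) had none there. Genes that match the symbol rule only by an older name and are not synthetases (4 of them) were left out. The rule for named genes takes every member, and all 6 array values for AIMP1 and for members called with an absolute log2 difference of at least 0.5. It also takes PLEKHO1, EPRS1 and TARS3, and up to 3 changed genes with the smallest p from each related list. GATB, SEPSECS, PSTK, EEF1A1, KRT8, CD68 and ATF4 are named outside it, after their values were seen. Further array values are given for some other members. The members and the lists were chosen with earlier results of these data known, so no pattern here is independent support for them. The 15 alternatives cover normalization, pseudocount, low genes, probe set choice, variance model, array weights, the replicate number and each array left out. Replicate numbers did not pair the arrays: the deviations of arrays with the same number correlated at -0.16, -0.16 and -0.05.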

Additional observations from a re-analysis of the deposited data

Results flagged for a closer look

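The 2 probe sets that the annotation assigns to both VARS2, the mitochondrial valine enzyme, and GTF2H4, a subunit of the transcription factor TFIIH, were left out of the gene tests because they name 2 genes. They were looked at because they hold a signal outside the measurements used above. They read 0.27 higher on the log2 scale (220 with shPLEKHO1 and 184 with shNC, adjusted p = 0.0108) and 0.21 higher (190 with shPLEKHO1 and 166 with shNC, adjusted p = 0.0174). The probe sets of VARS2 alone ranged from -0.39 to 0.07.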

How the results depend on the processing

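Over 15 alternatives, 478 of the 540 member comparisons kept their direction and their side of the threshold, 38 lost the call, 10 gained one and 14 turned their sign. AIMP1 fell at -0.20 with the mean of its probe sets; the other 13 turns passed no threshold on either side. With the mean of probe sets CARS1 read -0.058, TARS2 -0.0028 and WARS2 -0.13. With median centring EPRS1 read 0.0090 and RARS2 0.0034. With 1 array left out EPRS1 ranged from -0.021 to 0.0078, CARS1 from -0.025 to 0.045, RARS2 from -0.033 to 0.0053, TARS2 from -0.032 to 0.094 and WARS2 from -0.0043 to 0.10. Of the 17 called members, 9 kept the call under all alternatives and 12 under all that keep the brightest probe set; the cause of the losses was not tested, except that leaving out an array leaves fewer samples. Setting aside probe sets marked as sharing sequence left 3 cytosolic rises in place of 6. With 1 array left out, cytosolic rises numbered 4 to 5, cytosolic falls 3 to 4, mitochondrial rises 4 and mitochondrial falls 1 to 2, and PLEKHO1 read -0.37 to -0.25. With the replicate block, which rests on numbers that the arrays do not share in their deviations, 4 cytosolic enzymes rose and 3 fell, 4 mitochondrial enzymes rose and 2 fell, and 5257 of all genes changed in place of 6190. SARS1 (adjusted p = 0.0601), FARSB (0.128), IARS1 (0.117) and KARS1 (0.0816) lost their calls under that block, and also with median centring and with no normalization between arrays. Over all alternatives 5255 to 6691 genes changed.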
